A study of Mus musculus with 6 samples.

Results

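Long intergenic noncoding RNAs (lincRNAs) are transcripts that lie between protein-coding genes and carry no recognised coding sequence. They were taken here as the genes whose transcript type in the deposited table contained lincRNA and not protein_coding, that lay on a chromosome other than X or Y, and whose mean over the 6 samples was 1 FPKM or more. FPKM relates the fragments of a gene to the length of its transcript and to the size of the library. By this rule there were 116 lincRNAs, of 1480 lincRNA genes outside X and Y and of 28752 genes listed in all. The members were thus chosen by their mean FPKM, and the levels given below are a description.

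Transcripts of this class are spliced, capped and often polyadenylated like mRNAs, but many act in the nucleus, where they scaffold nuclear bodies, recruit chromatin factors or regulate a neighbouring gene. Others serve as hosts, from whose introns small nucleolar RNAs (snoRNAs, which guide the modification of ribosomal RNA) or microRNAs are cut. In the intestine, lincRNAs have been linked to the renewal of crypt stem cells and to the response of the mucosa to infection and injury.

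RNA sequencing compared 3 samples infected with the vector, the control, and 3 samples infected with a circEZH2_005 adenovirus, which overexpresses this circular RNA of the Ezh2 gene. All 6 samples came from wild-type Lgr5-GFP mice, whose Lgr5+ intestinal stem cells (ISCs) are marked by green fluorescent protein, and were grown as crypt-villus organoids. All had 72 h of infection followed by hypoxia/reoxygenation (H/R), with 4 h at 2% O2, and no sample kept in normal oxygen was analysed here. Neither the age of the mice nor whether the samples of a group came from separate mice or cultures is given in the labels, so that p-values measure the spread between these samples, which may be technical. The control columns of the table are named as a negative control and stand here for the vector group, since no other control is labelled.

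The counts of each sample summed to between 71506487 and 79919893. CPM are counts relative to the library size, and those given below were also scaled by edgeR's TMM factors. Without this scaling, 3 counts, the smallest level told from none, corresponded to between 0.0375 and 0.0420 CPM. This floor and every count below cover counting error only. All 8 markers of intestinal epithelium and all 8 markers of crypt stem cells were measured, so that the labelled cell type was present. Summed over the list, the epithelial markers lay between 8065 and 8512 CPM in vector samples and between 10205 and 13225 CPM in circEZH2_005 samples, and the stem cell markers between 1748 and 2620 CPM and between 1226 and 1810 CPM. With an adjusted p under 0.05 (edgeR), 2 of 8 epithelial markers were higher (Krt20 and Krt8) and 3 of 8 stem cell markers lower (Lgr5, Smoc2 and Rgmb) in circEZH2_005 samples. Of the stem cell markers, 2 had a positive log2 fold change (Axin2 at 0.31 and Cd44 at 0.05), and the summed values of the groups overlapped. Markers of leukocytes, which the sample titles do not name, were detected too. All 14 of them had a positive log2 fold change, with a median of 1.63, although 0 of 14 passed an adjusted p of 0.05. Their sum was 89.1, 274 and 111 CPM in vector samples 1 to 3, and 651, 490 and 363 CPM in circEZH2_005 samples 1 to 3. Vector sample 2 thus held the most leukocyte marker RNA of the vector samples. Fibroblast, muscle and endothelial markers summed to at most 16.3 CPM, and nerve and glial markers to at most 2.54 CPM. In bulk samples such as these, fewer cells of a type and less RNA per cell cannot be told apart.

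The 116 lincRNAs were mostly weakly expressed. Their median was 1.94 FPKM, 61 lay between 1 and 2 FPKM, 32 between 2 and 5, 7 between 5 and 10, and 16 at 10 FPKM or more. The 10 highest held 52.6% of the summed FPKM. Just inside the threshold were Gm44386 at 1.01 FPKM, 1700096K18Rik at 1.02 and 5430416N02Rik at 1.08, and just outside it Gm45353 at 0.981, Gm49654 at 0.980 and Gm19585 at 0.979. In 96 lincRNAs the mean was 1 FPKM or more in both groups, in 10 it was so in vector samples alone and in 10 in circEZH2_005 samples alone. All 116 passed the filter on low counts. Those of the last 2 kinds entered through the group in which they were high, and 3 of them are among the 7 that passed the test below.

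In the reference annotation (GENCODE M21, GRCm38, the build of the table) all 116 were found, 97 as lincRNA and 17 as processed_transcript. The others, AW011738 and Gm10134, are annotated there as protein_coding. The longest transcript had a median of 1639.5 bases (141 to 20771) and a median of 2 exons, and 29 had 1 exon. Chromosome 5 carried 21 of the 116 (18.1%), compared with 116 of the 1480 listed lincRNAs (7.84%) and 6.49% of all listed genes. Of the 116, 66 overlapped no other listed gene, whereas 30 overlapped a gene on the same strand and 26 a gene on the other strand. No source says that strand was used in counting, so reads of such a lincRNA and of its antisense partner cannot be told apart. In addition, 19 of the 116 had a near-identical copy in another gene, with at least 95% identity over at least 50% of a transcript.

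The highest level was that of AW112010, at a mean of 67.2 FPKM, a lincRNA known to be induced in immune cells by interferon and bacterial products and to encode a small protein needed for mucosal immunity. It was followed by Gm43305 at 47.2 FPKM, Gm10076 at 47.0, Gm3054 at 45.4, AI506816 at 33.0, 2900097C17Rik at 28.7, 9130016M20Rik at 23.1, Gas5 at 21.1, Malat1 at 17.8 and Oip5os1 at 16.0. Gm10076 is 99.5% identical to Rpl41, a ribosomal protein mRNA, over 383 of its 384 bases, so that reads of the 2 genes cannot be told apart. Its counts of 1721, 2426 and 608 with the vector and 2573, 825 and 823 with circEZH2_005 varied more within a group than between the groups. Gm3054 ranked high per length, with a longest transcript of 265 bases, although its counts were only between 793 and 1391 per sample.

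Of the broadly expressed lincRNAs among these 10, 2900097C17Rik, Oip5os1 and Malat1 had values close to equal in both groups, while Gas5, and Neat1 at 15.1 FPKM, did not overlap between the groups and are described below. 2900097C17Rik (Norad, which binds Pumilio proteins and maintains chromosome number) had counts of 11569, 11813 and 11979 with the vector and 12488, 11667 and 11182 with circEZH2_005. The groups overlapped, with a log2 fold change of -0.00 (SE 0.07), and it shares 99.2% identity over 2537 bases with Gm7292. Oip5os1 (Cyrano, which directs the decay of miR-7) had counts of 10936, 11622 and 11055 with the vector and 11646, 10951 and 10458 with circEZH2_005, with a log2 fold change of -0.03 (SE 0.08). Malat1, which resides in nuclear speckles, had counts of 10886, 8504 and 11174 with the vector and 9099, 10630 and 12348 with circEZH2_005, with a log2 fold change of 0.08 (SE 0.17). In each of these lincRNAs the samples of the groups were interleaved.

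**Figure D1:**
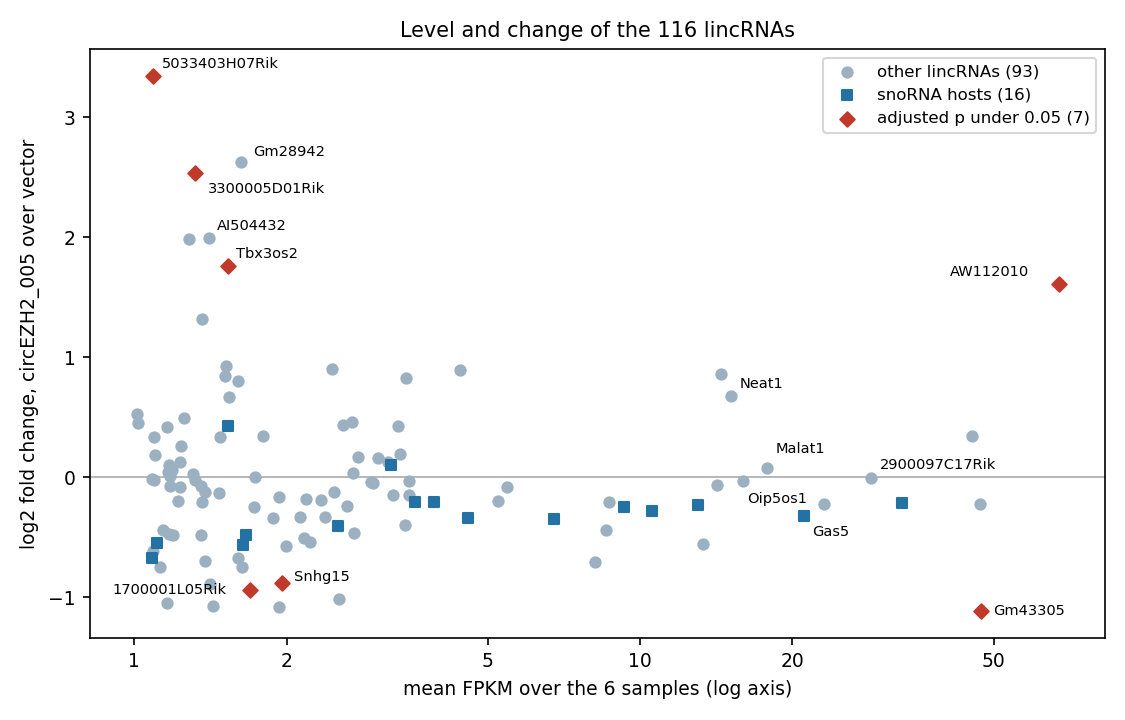
Mean level over the 6 samples (FPKM, log axis) against the edgeR log2 fold change of circEZH2_005 over vector for the 116 lincRNAs. Diamonds mark the 7 with an adjusted p under 0.05 (Snhg15 among them is also a snoRNA host), squares the other 16 snoRNA hosts and circles the other 93 lincRNAs. Most points of 5 FPKM or more lie within 1 of 0 on the log2 scale, whereas AW112010 stands at 1.61 and Gm43305 at -1.11.

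To ask which lincRNAs changed with circEZH2_005, all 18348 genes with sufficient counts were compared with edgeR's quasi-likelihood test, and p-values were adjusted over all of them by the method of Benjamini and Hochberg. Of the 116 lincRNAs, 4 were higher in circEZH2_005 samples with an adjusted p under 0.05 (3.45%, beside 2.69% of all genes tested) and 3 were lower (2.59%, beside 0.986%). By the thresholds of the study, a fold change over 2 or under 0.5 with an unadjusted p under 0.05, 8 were higher (6.90%, beside 6.22%) and 5 were lower (4.31%, beside 1.34%). The shares were 8.25% and 4.95% of lincRNAs under 1 FPKM tested, and 4.58% and 0.596% of protein-coding genes of 1 FPKM or more. Of the 8, 7 had under 1 FPKM in vector samples and so entered the rule through the circEZH2_005 samples, and of the 5, 2 had under 1 FPKM in circEZH2_005 samples. In 44 lincRNAs (37.9%) the groups did not overlap, beside 30.6% of all genes tested and 36.9% of protein-coding genes of 1 FPKM or more. At an unadjusted p under 0.05, 15 lincRNAs were higher (12.9%, beside 14% of all genes tested) and 24 lower (20.7%, beside 9.72%). Over the whole set, 71 of 116 (61.2%) had a negative log2 fold change, and the median was -0.10, compared with 0.00 over all genes and -0.00 over protein-coding genes of 1 FPKM or more.

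The calls depended on single samples. Without vector sample 1, vector sample 3 or circEZH2_005 sample 2, 0 of the 7 passed an adjusted p of 0.05, without circEZH2_005 sample 3 only 3300005D01Rik passed, and without circEZH2_005 sample 1 all but Gm43305 passed. Without vector sample 2, all 7 passed, together with 7 further lincRNAs. In that fit 1432 genes in all had an adjusted p under 0.05 (edgeR), compared with 674 when all 6 samples were used. The direction of each of the 7 was the same throughout.

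The 4 lincRNAs that rose were 5033403H07Rik, 3300005D01Rik, Tbx3os2 and AW112010. 5033403H07Rik (chromosome 5, 52973012 to 52994436, minus strand) had counts of 18, 27 and 8 with the vector and 143, 251 and 149 with circEZH2_005. It was low in all vector samples and rose 10.1-fold, with a log2 fold change of 3.34 (SE 0.49, adjusted p = 0.0225, edgeR). It overlaps Gm30301 on the other strand. The nearest protein-coding gene, at 43645 bases between the start sites, was Slc34a2, which encodes the sodium-phosphate cotransporter of the intestinal brush border. Slc34a2 had counts of 4913, 5346 and 4647 with the vector and 19774, 48720 and 23437 with circEZH2_005. It rose as well (log2 fold change 2.63, SE 0.34, adjusted p = 0.0176, edgeR), and for it as for 5033403H07Rik the highest value was in circEZH2_005 sample 2.

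3300005D01Rik (chromosome 17, 5798657 to 5803048, plus strand) had counts of 48, 49 and 39 with the vector and 414, 239 and 154 with circEZH2_005. The vector samples were alike and all 3 circEZH2_005 samples stood above them, with a 5.81-fold rise (log2 fold change 2.54, SE 0.37, adjusted p = 0.0214, edgeR). Its nearest protein-coding gene, Snx9, which acts in endocytosis, stood at 0.17 on the log2 scale (adjusted p = 0.393, edgeR). Tbx3os2 (chromosome 5, 119685095 to 119691218, minus strand) lies 20549 bases from the start of Tbx3, a T-box transcription factor of development and stem cells, on the opposite strand. It had counts of 79, 99 and 60 with the vector and 331, 272 and 212 with circEZH2_005, without overlap. Its log2 fold change was 1.76 (SE 0.27, adjusted p = 0.0247, edgeR), a 3.38-fold rise, while that of Tbx3 was 0.59 (adjusted p = 0.172, edgeR).

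AW112010 (chromosome 19, 11047612 to 11055808, minus strand) had counts of 1758, 3212 and 1810 with the vector and 8061, 6975 and 5742 with circEZH2_005. Vector sample 2 stood above the other vector samples but below every circEZH2_005 sample. AW112010 rose 3.05-fold (log2 fold change 1.61, SE 0.24, adjusted p = 0.0229, edgeR), from 34.7 FPKM ± 13.3 (SD, n = 3) to 99.7 FPKM ± 16.7 (SD, n = 3). It was the only lincRNA of the 4 with 1 FPKM or more in both groups. The summed leukocyte markers were likewise higher in all circEZH2_005 samples and highest among vector samples in vector sample 2, and their part in this rise was not tested. Its nearest protein-coding gene, Ms4a8a, a membrane protein, stood at 0.14 on the log2 scale (adjusted p = 0.694, edgeR).

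The 3 lincRNAs that fell were Gm43305, 1700001L05Rik and Snhg15. Gm43305 (chromosome 14, 54292443 to 54297456, minus strand) had counts of 32516, 19349 and 28527 with the vector and 10785, 12318 and 13930 with circEZH2_005. Vector sample 2 lay lowest of the vector samples and still above all circEZH2_005 samples. The level fell from 65.8 FPKM ± 16.7 (SD, n = 3) to 28.5 FPKM ± 3.93 (SD, n = 3), with a log2 fold change of -1.11 (SE 0.21, adjusted p = 0.0397, edgeR). A stretch of 515 bases of a transcript of Gm43305 is 98.6% identical to Gm42031, and the shorter Gm42428 is 99.0% identical to Gm43305, so that its reads could be split between these genes.

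1700001L05Rik (chromosome 15, 83353847 to 83367282, minus strand) had counts of 1107, 1033 and 1250 with the vector and 655, 571 and 545 with circEZH2_005. The groups were well separated, with a log2 fold change of -0.94 (SE 0.12, adjusted p = 0.0175, edgeR), the smallest adjusted p of the 116. Its nearest protein-coding gene, Arfgap3, which acts in Golgi transport, stood at 0.38 on the log2 scale (adjusted p = 0.0973, edgeR). Snhg15 (chromosome 11, 6525591 to 6528779, minus strand), the host of the snoRNA Snora9, had counts of 514, 582 and 585 with the vector and 332, 289 and 291 with circEZH2_005. Samples of each group were close to each other and the groups did not overlap (log2 fold change -0.88, SE 0.14, adjusted p = 0.0279, edgeR). Its nearest protein-coding gene, Myo1g, an unconventional myosin of blood cells, stood at 1.69 on the log2 scale (adjusted p = 0.0795, edgeR).

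**Figure D2:**
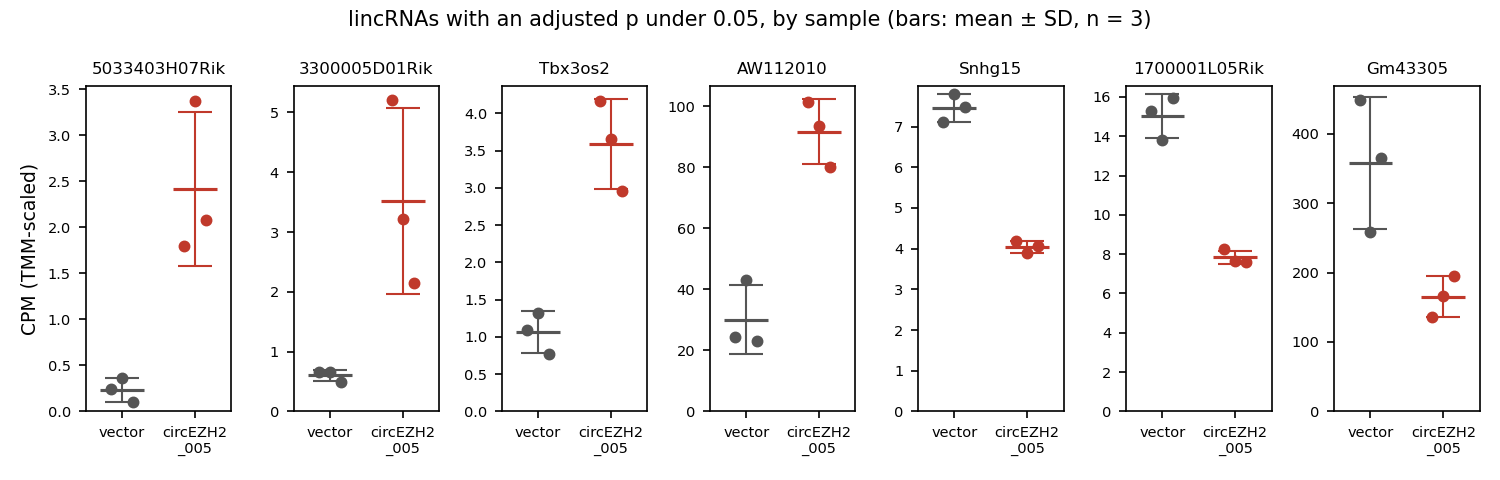
TMM-scaled CPM of the 7 lincRNAs with an adjusted p under 0.05 in each vector sample (grey) and circEZH2_005 sample (red), with linear axes from 0 that differ between panels. Points are samples 1 to 3 from left to right and bars are mean ± SD (n = 3). In every panel the 3 samples of a group lie apart from the 3 of the other, and for AW112010 vector sample 2, at 3212 counts, is the highest of its group.

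Promoters of the lincRNAs were read from RefSeq (GRCm38.p6) as 250 bases before to 50 bases after the start. Of the 116, 67 had an entry, and the RefSeq start lay within 100 bases of the start in the table for 49 of these. All 7 lincRNAs that passed the test had an entry. The promoters of 4 of them are shown as examples of different motifs. Capitals mark the motifs, which were searched on both strands, and each promoter reads 5′ to 3′ along its gene.
AW112010 (chr19:11050517-11050816, minus strand): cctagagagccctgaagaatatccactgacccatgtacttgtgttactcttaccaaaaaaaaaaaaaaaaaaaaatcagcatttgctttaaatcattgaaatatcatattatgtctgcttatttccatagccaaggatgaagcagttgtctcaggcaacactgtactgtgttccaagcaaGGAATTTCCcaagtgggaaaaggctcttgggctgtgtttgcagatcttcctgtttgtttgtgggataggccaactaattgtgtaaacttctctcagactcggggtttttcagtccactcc
Tbx3os2 (chr5:119691169-119691468, minus strand): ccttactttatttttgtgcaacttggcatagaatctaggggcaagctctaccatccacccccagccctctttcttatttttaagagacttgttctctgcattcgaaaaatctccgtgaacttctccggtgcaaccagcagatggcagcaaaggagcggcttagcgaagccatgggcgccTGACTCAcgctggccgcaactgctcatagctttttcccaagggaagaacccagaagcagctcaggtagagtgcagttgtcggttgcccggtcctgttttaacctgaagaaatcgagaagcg
Snhg15 (chr11:6528711-6529010, minus strand): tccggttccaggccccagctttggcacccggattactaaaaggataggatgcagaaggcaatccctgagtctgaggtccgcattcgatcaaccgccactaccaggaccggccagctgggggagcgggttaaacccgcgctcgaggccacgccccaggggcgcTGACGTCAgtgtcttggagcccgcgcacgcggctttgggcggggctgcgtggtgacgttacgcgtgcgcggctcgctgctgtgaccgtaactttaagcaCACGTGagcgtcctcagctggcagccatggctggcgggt
Gm43305 (chr14:54297439-54297738, minus strand): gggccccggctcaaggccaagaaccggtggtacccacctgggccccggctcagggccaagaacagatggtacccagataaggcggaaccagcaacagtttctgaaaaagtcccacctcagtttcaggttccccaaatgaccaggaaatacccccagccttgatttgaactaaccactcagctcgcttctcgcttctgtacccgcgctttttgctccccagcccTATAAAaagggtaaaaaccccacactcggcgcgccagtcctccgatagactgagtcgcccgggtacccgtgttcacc
In AW112010 the capitals are an NF-kB core (GGANNTTCC) 70 bases before the RefSeq start, which lies 5242 bases from the start in the table. In Tbx3os2 they are an AP-1 motif (TGANTCA) 71 bases before the start. Snhg15 holds a cAMP response element (CRE, TGACGTCA) 88 bases before the start and an E-box (CACGTG) just after it, and Gm43305 a TATA box (TATAAA) 27 bases before the start.

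The share of the 67 promoters with each motif was set beside that of all 32851 promoters of the reference. AP-1 was found in 6 of 67 (8.96%) and in 7.81% of all promoters, and the NF-kB core in 3 (4.48%) and in 4.26%. The core of the interferon-stimulated response element (GAAANNGAA) was found in 7 (10.4%) and in 8.56%, the TATA box in 12 (17.9%) and in 13.6%, and the CRE in 3 (4.48%) and in 1.79%. The E-box was found in 6 (8.96%) and in 7.15%. Every E-box contains the hypoxia response core (ACGTG), which was found in 16 (23.9%) and in 19.6%. A match describes these letters and not the binding of a factor.

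Of the lincRNAs with the largest fold changes at an unadjusted p under 0.05, most had few counts. Beside 5033403H07Rik and 3300005D01Rik these were Gm28942, AI504432 and Gm50237 among the higher. Gm28942 had counts of 2, 27 and 13 with the vector and 144, 66 and 54 with circEZH2_005 (log2 fold change 2.62, SE 0.77, adjusted p = 0.0948, edgeR). AI504432, which lies 3335 bases from the start of the potassium channel gene Kcna3 of lymphocytes, had counts of 115, 529 and 152 and of 1425, 976 and 796 (log2 fold change 1.99, SE 0.55, adjusted p = 0.0836, edgeR). Kcna3 itself stood at 1.84 on the log2 scale (adjusted p = 0.0871, edgeR). Gm50237, near the interferon-inducible GTPase gene Iigp1, had counts of 9, 45 and 8 and of 86, 91 and 71 (log2 fold change 1.99, SE 0.67, adjusted p = 0.129, edgeR), and that of Iigp1 was 1.69 (adjusted p = 0.302, edgeR). AI504432 overlaps Gm27008 and Gm50237 overlaps F830016B08Rik on the other strand.

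In all 3 of these, vector sample 2 was the highest of the vector samples. The 6 samples of AI504432, Gm28942, AU020206 and Mir142hg stood in exactly the order of the summed leukocyte markers, from circEZH2_005 sample 1 down to vector sample 1, and the samples of Gm43305 and Gm20300 stood in exactly the reverse order. Neat1 and Gm12319 followed the order of the epithelial markers in the same way, while Snhg1 and Snhg15 followed its reverse. These orders were looked for among all 116 lincRNAs after the values were seen, and no such count was made for other genes. How much of each difference moved with leukocyte or epithelial RNA was not tested.

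Among the lower, Gm36738, Gm48265, 2210039B01Rik and 2310040G24Rik followed Gm43305, with log2 fold changes of -1.08 (SE 0.37), -1.07 (SE 0.43), -1.04 (SE 0.33) and -1.01 (SE 0.28). Their counts lay between 58 and 285 in vector samples and between 27 and 124 in circEZH2_005 samples, and none of the 4 passed an adjusted p of 0.05 (0.0854 to 0.185, edgeR). Gm48265 lies 10347 bases from the start of Ccl28, a chemokine of mucosal epithelia, on the opposite strand. Ccl28 had counts of 8855, 8503 and 9355 with the vector and 6396, 4648 and 5818 with circEZH2_005 and fell (log2 fold change -0.67, SE 0.11, adjusted p = 0.0306, edgeR). Gm48265 also overlaps Tmem267 on the other strand. Of the other neighbours, Rac2 beside Gm36738 stood at 1.60 on the log2 scale (adjusted p = 0.0574, edgeR), Tmem30b beside 2210039B01Rik one of -0.07 and Pcbp1 beside 2310040G24Rik one of -0.12.

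Hosts of snoRNAs formed the largest functional group. GENCODE M21 annotates at least 1 snoRNA within 17 of the lincRNAs, a grouping made after the values were seen. In AI506816 the only entry of this kind bears a microRNA name, Mir3096. Of these 17, 15 (88.2%) had a negative log2 fold change, with a median of -0.32, whereas the other 99 lincRNAs had a median of -0.04. Only Snhg15 passed an adjusted p of 0.05. At an unadjusted p under 0.05 by edgeR, 8 (47.1%) were lower and 0 were higher. The share lower was 9.72% of all genes tested and 13.0% of protein-coding genes of 1 FPKM or more. In 11 of 17 (64.7%) the groups did not overlap, beside 30.6% of all genes tested and 36.9% of protein-coding genes of 1 FPKM or more. The hosts summed to 433, 465 and 449 CPM in vector samples and to 402, 353 and 368 CPM in circEZH2_005 samples. Every circEZH2_005 sample thus lay below every vector sample, with the nearest values in vector sample 1 and circEZH2_005 sample 1. The part in this of the 3 stem cell markers that were lower and the 2 epithelial markers that were higher, named above, was not tested.

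Gas5, which accumulates in growth arrest and hosts many snoRNAs of the C/D box class, had counts of 6726, 8086 and 7226 with the vector and 6473, 5343 and 5876 with circEZH2_005 (log2 fold change -0.32, SE 0.10, adjusted p = 0.102, edgeR). Snhg1 had counts of 2596, 3132 and 2881 and of 2764, 2152 and 2186 (log2 fold change -0.28, SE 0.10, adjusted p = 0.155, edgeR). Snhg17 had counts of 1688, 1742 and 1650 and of 1475, 1306 and 1078 (log2 fold change -0.40, SE 0.11, adjusted p = 0.0864, edgeR). After scaling for library size the groups did not overlap in any of the 3, and each difference was under 1.5-fold.

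Dancr, known as an inhibitor of differentiation in progenitor cells, had a log2 fold change of -0.68 (SE 0.22), Snhg20 one of -0.56 (SE 0.22) and Snhg4 one of -0.48 (SE 0.15), with adjusted p-values of 0.114, 0.176 and 0.101 (edgeR). Smaller values were those of Epb41l4aos (-0.35), Snhg6 (-0.33), Snhg8 (-0.24), Snhg5 (-0.20) and Snhg18 (-0.20). The 2 hosts with positive values were 2010001K21Rik (0.43, SE 0.21) and Snhg12 (0.10, SE 0.26), the latter negative without vector sample 1, vector sample 3 or circEZH2_005 sample 1. A transcript of 2010001K21Rik is 96.8% identical to Coro1c over 282 bases. Counts of Snhg12 were 480, 882 and 513 with the vector and 842, 609 and 572 with circEZH2_005, so that the groups overlapped. The snoRNAs lie within their hosts in the annotation, and oligo(dT) beads, with which the libraries were made, do not select them, so that their own levels were not measured.

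**Figure D3:**
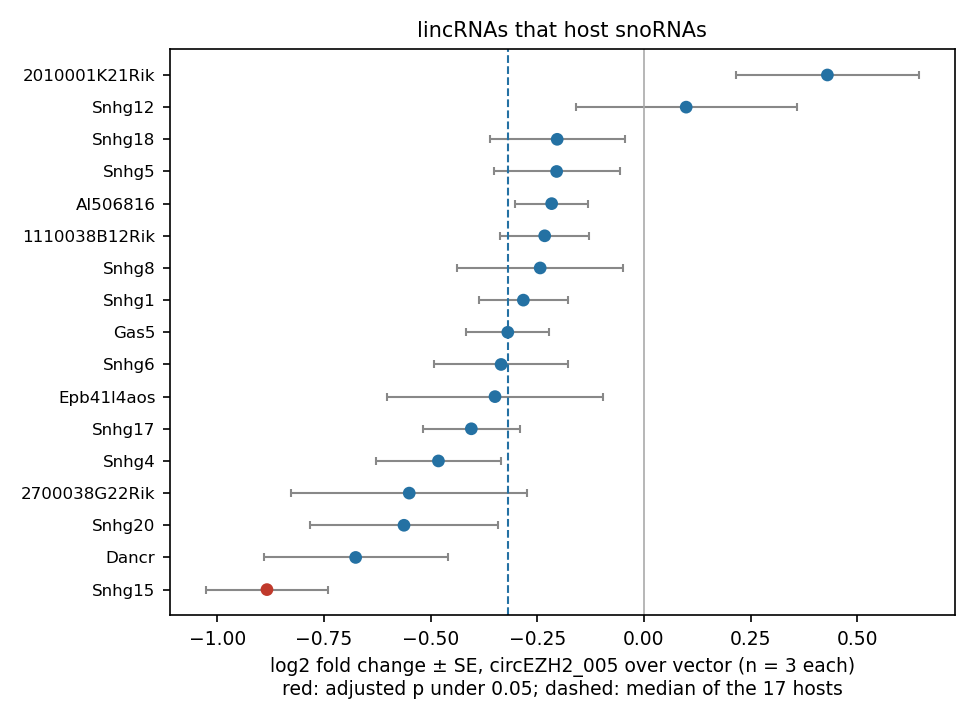
Log2 fold change of circEZH2_005 over vector (points) with its standard error (bars, n = 3 per group) for the 17 lincRNAs that host snoRNAs. 15 points lie below 0, the dashed line marks their median of -0.32, and only Snhg15 (red) had an adjusted p under 0.05.

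Many snoRNA hosts and ribosomal protein genes are known to start with a run of pyrimidines, the 5′ terminal oligopyrimidine (TOP) motif, which couples their RNA to growth signalling. In RefSeq, 13 of the 17 hosts had a promoter entry, and 2010001K21Rik, Epb41l4aos, Snhg4 and Snhg6 had none. A run of at least 7 pyrimidines that began within 10 bases of the start was found in 8 of 13 hosts (61.5%), in 12 of the 54 other lincRNAs with an entry (22.2%) and in 14.4% of all 32851 promoters. A transcript of AI506816 is 95.4% identical to 2700038G22Rik over 347 bases. Both hosts have the run, so that these runs are not independent. The windows below reach from 12 bases before to 17 bases after the RefSeq start, with the run in capitals, and show where it lies in 6 of the hosts.
Snhg1 (chr19:8723475-8723504, plus strand): gttcttgtcggcctcaTTTTTCCTTgttcg
Snhg8 (chr3:123508319-123508348, minus strand): ccgttcagaagTCTCTTTggctgcgatccg
Snhg12 (chr4:132308666-132308695, plus strand): cgttctcagTCCTTTCTCgcttcatccgcg
Snhg18 (chr15:32244645-32244674, minus strand): ttcccaggCCCCTCCTCTagccccgcctct
AI506816 (chr5:23712650-23712679, minus strand): gccctggcgccctgCTCTTCCgccgcggcg
1110038B12Rik (chr17:34952454-34952483, minus strand): gggcggcacacgggTCTCTTTgtgcacccg
Gas5, Snhg15, Snhg17, Snhg20 and Dancr had no such run at the RefSeq start. For Gas5 and Snhg20 this start lies 179 and 775 bases from the start in the table. The hosts without a run had log2 fold changes between -0.88 (Snhg15) and -0.32 (Gas5). Those with a run lay between -0.55 (2700038G22Rik) and 0.10 (Snhg12). Whether the run bears on these changes was not tested.

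Of the other lists of known transcripts, few reached 1 FPKM. From the list of nuclear and broadly expressed regulators, Malat1, Neat1, Norad and Oip5os1 were among the 116. Neat1, the scaffold of paraspeckles, had counts of 24247, 16415 and 20665 with the vector and 27719, 39957 and 30164 with circEZH2_005. All circEZH2_005 samples lay above the vector samples, with a log2 fold change of 0.67 (SE 0.20), but the adjusted p was 0.0942 (edgeR). Its short isoform carries a poly(A) tail, whereas the long isoform of Neat1 and Malat1 end in a triple helix, so that oligo(dT) selection may not hold all of their RNA. 1810026B05Rik (Chaserr, which restrains the chromatin remodeller gene Chd2 beside it) had counts of 1554, 1462 and 1430 with the vector and 1921, 2120 and 1991 with circEZH2_005, with a log2 fold change of 0.44 (SE 0.11, adjusted p = 0.0657, edgeR), and that of Chd2, which overlaps it on the same strand, was 0.30 (adjusted p = 0.221, edgeR). It had been listed with the snoRNA hosts, but no snoRNA is annotated in it. From the lists of imprinted and of stress and p53 lincRNAs, 7 and 6 genes were in the table and 0 reached the rule.

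Of the microRNA hosts, 2 listed genes were among the 116. Mir142hg, the host of the blood cell microRNA miR-142, had counts of 19, 32 and 23 with the vector and 58, 40 and 36 with circEZH2_005. The groups did not overlap, but the counts were low (log2 fold change 0.84, SE 0.42, adjusted p = 0.273, edgeR), and Mir142b overlaps it on the other strand. Mir17hg, the host of the miR-17-92 cluster that acts in proliferation, had counts of 557, 643 and 448 and of 560, 440 and 403, which overlapped (log2 fold change -0.24, SE 0.19, adjusted p = 0.503, edgeR). The mature sequences of the main arms, from RefSeq, are shown with the seed (bases 2 to 8) in capitals, because the seed sets which transcripts a microRNA can pair with.
mmu-miR-142a-5p (chr11:87756867-87756887, plus strand): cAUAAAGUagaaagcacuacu
mmu-miR-142a-3p (chr11:87756903-87756925, plus strand): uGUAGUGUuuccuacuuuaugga
mmu-miR-17-5p (chr14:115043684-115043706, plus strand): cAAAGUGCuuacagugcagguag
mmu-miR-20a-5p (chr14:115044183-115044205, plus strand): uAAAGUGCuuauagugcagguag
mmu-miR-18a-5p (chr14:115043867-115043889, plus strand): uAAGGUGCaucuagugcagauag
mmu-miR-19a-3p (chr14:115044048-115044070, plus strand): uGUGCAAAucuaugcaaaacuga
mmu-miR-19b-3p (chr14:115044358-115044380, plus strand): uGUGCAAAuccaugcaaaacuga
mmu-miR-92a-3p (chr14:115044476-115044496, plus strand): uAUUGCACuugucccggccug
In the cluster, miR-17 and miR-20a share the seed AAAGUGC and miR-19a and miR-19b the seed GUGCAAA, while miR-18a (AAGGUGC) and miR-92a (AUUGCAC) have seeds of their own. The mature microRNAs were not measured by these libraries.

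Because several lincRNAs act on the gene beside them, each was set beside its nearest protein-coding gene by the distance between start sites. This distance had a median of 20470.5 bases, 16 lay over 100000 bases apart, and 17 lincRNAs were divergent, with non-overlapping genes on opposite strands and starts within 2000 bases. In 108 pairs both genes were tested, and 66 had the same sign. Of the divergent pairs, 9 of 17 had the same sign. Pairs share their samples, no such count was made for other pairs of genes, and these counts are a description.

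Of the neighbours in the 108 pairs, 5 rose and 4 fell with an adjusted p under 0.05 (edgeR). Of all protein-coding genes tested, 3.15% rose and 1.18% fell by this threshold. Beside Slc34a2 and Ccl28, the divergent neighbour of Gm12319, Eno3 (the muscle form of the glycolytic enzyme enolase), rose by 2.11 on the log2 scale (adjusted p = 0.00249, edgeR), while Gm12319 itself, 709 bases away, stood at 0.80 (adjusted p = 0.397, edgeR). The cholesterol exporter gene Abca1 near AI427809 (1.89) and the apoptosis gene Pmaip1 near Gm9926 (0.80) rose too. Hspa1b, a heat shock protein gene beside the snoRNA host 1110038B12Rik, had counts of 571, 885 and 832 with the vector and 187, 268 and 231 with circEZH2_005 and fell (log2 fold change -1.73, SE 0.23, adjusted p = 0.0185, edgeR). Prss12 near Snhg8 (-1.46) and Prom1 near Gm42428 (-0.75) fell as well. 5033403H07Rik and Slc34a2 were the only pair of which both passed.

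**Figure D4:**
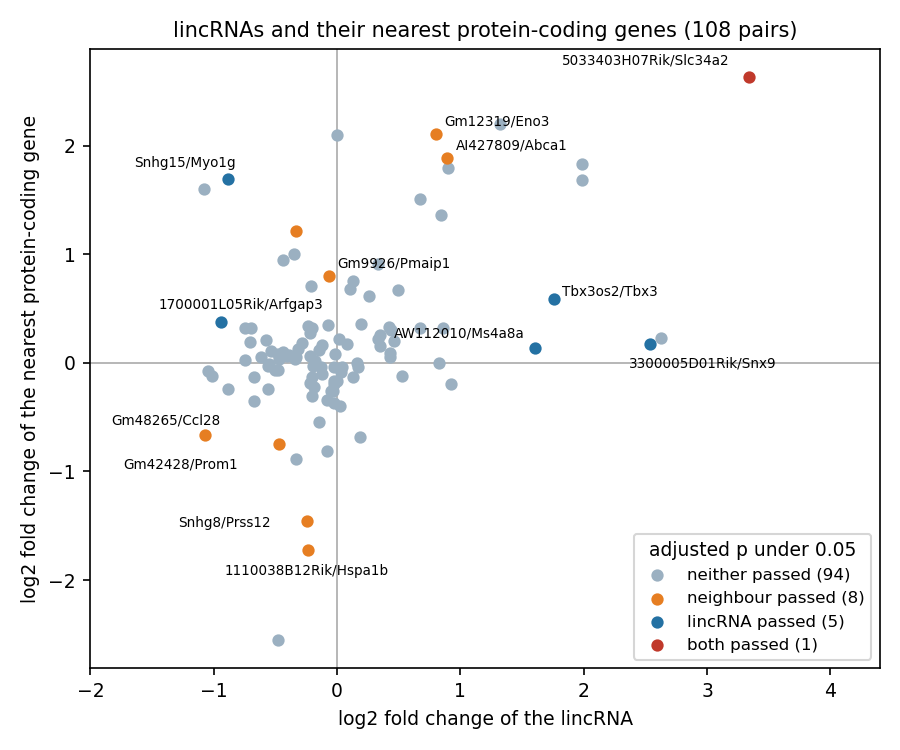
Log2 fold change of circEZH2_005 over vector for each lincRNA (horizontal) and for its nearest protein-coding gene (vertical), in the 108 pairs in which both were tested. Colours mark which of the pair had an adjusted p under 0.05. Only the pair of 5033403H07Rik (3.34) and Slc34a2 (2.63) has both, and 66 of the 108 points lie in the quadrants of equal sign.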

How the data were processed

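RNA sequencing of polyadenylated RNA from 6 samples was analysed, with 3 samples per group, as assigned from the sample labels. The submitters' processing notes name cutadapt 1.9, HISAT2 2.0.4, StringTie 1.3.4d, DESeq2 and the build mm10. The authors deposited, for every gene and sample, a count of reads without normalization and an FPKM value, and every column of sample values was used.

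The rule was applied to the FPKM values. Tests used the counts of all genes, filtered with filterByExpr, scaled with TMM and fitted in edgeR 4.0.16 (R 4.3.3) without covariates for its quasi-likelihood test, with Benjamini-Hochberg adjustment over 18348 genes. Standard errors come from the F statistic, as the log2 fold change over its root. With 3 samples per group, an exact permutation test of a single gene cannot go below 0.1, and 44 lincRNAs reached this value. The members, lists and alternatives were chosen with earlier results of these data known. The lincRNAs named are those with an adjusted p under 0.05, the 10 with the highest FPKM, the 5 in each direction with the largest log2 fold change at an unadjusted p under 0.05 and no overlap, those of lists of known lincRNAs, and the neighbours of the lincRNAs chosen by adjusted p or by fold change. Others, such as AU020206, Gm20300, Gm12319 and the hosts of snoRNAs that are on no list, were named after their values were seen. The result for 1 neighbouring gene is not reported here.

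Alternatives were median-of-ratios scaling, no filter, another filter, DESeq2 1.42.0, limma 3.58.1 on log2(FPKM + 1) and log2(FPKM + 0.1), a replicate block, each sample left out, and other forms of the rule. The scripts were tested on simulated data. Near-identical copies were searched with BLAST among the M21 transcripts. At the depth reached, the number of samples rather than counting error limits the precision for all but lincRNAs with few counts; 6 of the 116 had a mean under 50 counts.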

Additional observations from a re-analysis of the deposited data

How the results depend on the processing

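The number of lincRNAs by the rule was 55 at 2 FPKM and 192 at 0.5 FPKM. For lincRNAs higher with an adjusted p under 0.05 (4), the count was 2 without a filter, 14 with DESeq2, 1 at 2 FPKM, 1 with 1 FPKM or more in each group and between 0 and 10 with a sample left out. For those lower (3), it was 9 with DESeq2, 5 with limma on log2(FPKM + 1), 0 with the replicate block, 1 at 2 FPKM and between 0 and 4 with a sample left out. By fold change and unadjusted p, the higher (8) became 1 at 2 FPKM, 15 at 0.5 FPKM, 4 among lincRNAs that overlap no other gene and 1 with 1 FPKM or more in each group, with 7 to 11 when a sample was left out. The lower (5) became 1 with limma on log2(FPKM + 1), 2 at 2 FPKM, 10 at 0.5 FPKM and 3 with 1 FPKM or more in each group, with 2 to 5 when a sample was left out. The median log2 fold change (-0.10) was -0.17 with limma on log2(FPKM + 0.1), where that of all genes was -0.09, was -0.18 at 2 FPKM, and lay between -0.14 and -0.070 with a sample left out. For the snoRNA hosts the median lay between -0.36 and -0.23 with a sample left out, with 15 or 16 of 17 negative, and -0.32 with the replicate block. Where 0 lincRNAs passed, edgeR had between 28 and 68 genes with an adjusted p under 0.05 in all and between 29 and 34 lincRNAs at an unadjusted p under 0.05. With DESeq2, 2289 genes in all had an adjusted p under 0.05, compared with 674 in the main edgeR fit. All 7 lincRNAs passed with DESeq2, limma and median-of-ratios scaling as well, while AW112010, Gm43305 and Tbx3os2 were lost without a filter. With no value that shows it, the cause of these shifts was not tested, other than that fewer or more lincRNAs or samples entered.

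Whether the replicate numbers pair the samples is not given in the labels, and the correlations that follow cannot decide it. Across 18348 genes, the departures of same-numbered samples from their groups correlated at -0.14, -0.02 and 0.04. With the number as a block, 4 lincRNAs passed an adjusted p of 0.05 as higher and 0 as lower, 8 were higher and 4 lower by fold change and unadjusted p, and the median was -0.09. 35 lincRNAs had an unadjusted p under 0.05 in this fit, in which 1700001L05Rik (adjusted p just above 0.05), Snhg15 (adjusted p = 0.0744, edgeR) and Gm43305 (adjusted p = 0.0731, edgeR) no longer passed. Of all values of single named lincRNAs under the alternatives, 422 kept their direction and their side of the threshold, 34 were no longer past it, 11 were newly past it and 14 changed sign. Those 14 belonged to 5 lincRNAs near 0 or of wide spread that passed in no setting. With a sample left out, Gm10076 lay between -0.92 and 0.22, 2900097C17Rik between -0.025 and 0.0081, Malat1 between -0.077 and 0.22, Oip5os1 between -0.069 and 0.0041 and Snhg12 between -0.052 and 0.44. 2900097C17Rik was 0.0048 with a mean of at least 1 FPKM for all genes tested, and Malat1 was -0.018 and -0.019 with limma on log2(FPKM + 1) and log2(FPKM + 0.1).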

Other observations

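Of the lincRNAs outside X and Y with less than 1 FPKM, 424 had sufficient counts, and 4 were higher and 1 lower in circEZH2_005 samples with an adjusted p under 0.05 (0.943% and 0.236%, edgeR). Gm47015 had counts of 23, 48 and 31 with the vector and 232, 146 and 142 with circEZH2_005 (log2 fold change 2.33, adjusted p = 0.0241, edgeR), and Gm1965 had 89, 74 and 95 and 223, 285 and 190 (log2 fold change 1.43, adjusted p = 0.0301, edgeR). The other 3 were detected in a single group. Gm48089 had 0 counts in all vector samples and 33, 59 and 38 in circEZH2_005 samples, and Gm28100 had 0 counts in all vector samples and 12, 20 and 16 in circEZH2_005 samples. Conversely, 5430440P10Rik had 24, 22 and 31 counts in vector samples and 0 in all circEZH2_005 samples. Gm48089 overlaps Gm34921 on the other strand.

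On the X chromosome, Xist, the RNA that coats the inactive X chromosome, was expressed at a mean of 40.7 FPKM. The study reports only male animals, and the sex of the cells in these samples was not tested. Xist had counts of 71881, 59438 and 82593 with the vector and 60147, 46813 and 44005 with circEZH2_005. After scaling for library size the groups did not overlap, but the adjusted p was above the threshold (log2 fold change -0.51, adjusted p = 0.0775, edgeR).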
